A study of Mus musculus with 8 samples.

Results

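MHC class II molecules carry peptides to the surface of antigen-presenting cells. Methylation is described here for 9 mouse genes that build, load or switch on these molecules, namely H2-Aa, H2-Ab1, H2-Eb1, H2-DMa, H2-DMb1, H2-Oa, H2-Ob, Cd74 and Ciita, of 21755 protein-coding genes. The genes were taken by name, and each window ran from 5 kb before the gene to 5 kb after it (GENCODE M21, build mm10). The windows held 2865 CpGs listed in any library and 2612 listed in all 4, of 20645953 listed on the autosomes and the X chromosome. DNA came from the spleens of C57BL/6J mice aged 6 to 8 weeks, with no other allele and no treatment given in the labels. The B cells were resting CD43- cells, and the T cells were naive CD4+ cells sorted as CD62Lhi, CD44lo and CD25-. Each cell type came from females and from males, which made 4 groups with 2 samples and 1 deposited file each, so a group entered as 1 library. Where values are given in pairs, that of the females stands first. Each sample pooled the cells of several animals according to the study's methods. Both cell types and both sexes thus had 2 libraries on each side, and the sexes were the only replicates of a cell type. The p-values measured only the spread between these 4 libraries. For promoters, starts and tiles that spread was shared across all regions of the kind and not taken from the region alone. The comparison asked how DNA methylation at the class II genes differed between a cell that presents antigen and one that does not.

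A class II molecule is a pair of an alpha and a beta chain. In the mouse, H2-Aa and H2-Ab1 encode the pair called I-A, and H2-Eb1 encodes the beta chain of I-E, whose alpha chain is lost in C57BL/6 through a deletion in its own promoter. Cd74 is the invariant chain, which fills the peptide groove until the molecule reaches the endosome. There H2-DM, made of H2-DMa and H2-DMb1, exchanges the remnant for peptide, and H2-O, made of H2-Oa and H2-Ob, restrains H2-DM, mainly in B cells. CIITA, the product of Ciita, does not bind DNA itself. It sits on factors that hold the X and Y boxes in front of class II genes. Ciita is read from separate promoters, of which pI is known from dendritic cells, pIII from B cells and pIV from the response to interferon gamma.

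Levels are given as the percentage of reads at a CpG, or over the CpGs of a region, that kept a C after oxidation and bisulfite, the signal of 5-methylcytosine. The libraries held between 280919817 (male B cells) and 354634149 (female B cells) reads at CpGs, a median of 14 to 17 per autosomal CpG. The level over all autosomal and X-linked CpGs was 80.4% and 81.2% in the female and male B cells and 78.7% and 78.9% in the T cells. Mitochondrial CpGs kept 0.271% and 0.727% of reads in the female and male B cells and 0.0733% and 0.0709% in the T cells. A region was called where the adjusted p of edgeR's quasi-likelihood test, run over all regions of its kind, was under 0.05 and the mean difference was at least 20 percentage points. The promoters of the marker genes followed the sort labels. All 5 B cell markers were called lower in B cells, where 0.41% of 20501 promoters were, and all 6 T cell markers were called lower in T cells, where 0.956% were. Of 10 markers of dendritic cells and macrophages, which also carry class II, 1 was called lower in B cells (Mpeg1, 63.2% and 60.6% in B cells against 84.0% and 82.3% in T cells). At any size of difference, 2.2% of all promoters passed lower in B cells and 17.7% lower in T cells. Among these 10 markers, Lyz2 was then also lower in B cells (48.4% and 47.2% against 63.0% and 66.2%), Xcr1 and Cd68 were lower in T cells, and the other 6 passed in neither direction. Their levels ran from 1.39% to 6.85% at Zbtb46 and Flt3 and from 72.4% to 93.4% at Clec9a, Itgax, Csf1r and Adgre1. Neither of 2 natural killer cell markers was called, and the part of other cells in the results was not tested.

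The X and Y boxes in front of the H2 genes are shown first, because CIITA acts through them and a CpG inside them can be read directly. RefSeq promoter sequences (GRCm38.p6, 250 bases before to 50 after the start) were matched for 6 of the 9 genes, H2-Aa, H2-Eb1, H2-DMa, H2-DMb1, H2-Oa and H2-Ob. They were searched on both strands for GNAAC, the core of an X box, followed 20 to 45 bases further by GATTGG, a Y box, a pair of motifs that was set after the sequences had been seen. Such a pair stood upstream of the RefSeq start, on the strand of the gene, in 5 of the 6 genes, and H2-DMa had none in either of its entries. Of all 32851 entries 1.45% held a pair anywhere on either strand, a looser count, and since the motifs were set on these sequences the comparison is a description. In the following sequences, 5′ to 3′ along the gene, capitals mark the X core and the Y box.
H2-Aa (chr17:34287837-34287934, minus strand): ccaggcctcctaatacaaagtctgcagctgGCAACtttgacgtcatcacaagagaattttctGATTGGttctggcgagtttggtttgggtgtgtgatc
H2-Eb1 (chr17:34305746-34305842, plus strand): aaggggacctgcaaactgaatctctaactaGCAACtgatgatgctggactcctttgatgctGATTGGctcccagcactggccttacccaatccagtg
H2-DMb1 (chr17:34153067-34153164, plus strand): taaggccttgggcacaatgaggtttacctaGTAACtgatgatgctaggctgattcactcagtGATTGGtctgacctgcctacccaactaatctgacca
H2-Oa (chr17:34092273-34092370, plus strand): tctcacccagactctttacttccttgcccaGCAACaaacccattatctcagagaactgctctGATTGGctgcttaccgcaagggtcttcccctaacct
H2-Ob (chr17:34238788-34238882, plus strand): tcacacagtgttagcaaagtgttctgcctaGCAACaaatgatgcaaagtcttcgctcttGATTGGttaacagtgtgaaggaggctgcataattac

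The spacing from the first base of the X core to that of the Y box was 32 bases in H2-Aa, H2-DMb1 and H2-Oa, 31 in H2-Eb1 and 29 in H2-Ob. H2-Eb1 and H2-DMb1 had no CpG in the stretch shown, and the 300 bases of the H2-Eb1 entry held none at all. With distances taken from the RefSeq start, which in H2-DMb1 and H2-Oa lies further into the gene than the GENCODE start used for the levels below, H2-Aa had 2, of which 1 lay between the boxes, 71 bases before the start, and 1 lay 37 bases before the start. Both were at 0% in all 4 libraries, T cells included, over 24 and 22 reads in B cells and 45 and 30 in T cells, summed over the 2 CpGs. A count of 0 allows a level of up to 12.5% and 13.6% in B cells and 6.67% and 10% in T cells (3 reads of the total, counting error only). The 2 CpGs lie close enough that the same molecule can be counted at both. Each CpG alone had 12 and 11 reads in B cells, and the bounds are higher where reads were shared. The CpG of H2-Ob between the boxes, 65 bases before the start, read 22.2% of 9 and 38.5% of 13 reads in B cells and 8.33% of 12 and 22.7% of 22 in T cells. The CpG of H2-Oa past the Y box, 30 bases before the start, read 5.56% and 0% in B cells and 0% and 4.55% in T cells. At these 4 CpGs of H2-Aa, H2-Oa and H2-Ob the B and T cell libraries overlapped.

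Ciita carried the largest difference of the 9 genes. GENCODE has coding transcripts at 3 separate starts within the first 10 kb, taken here in order as pI, pIII and pIV, whose longest coding sequences have 1155, 1078 and 1075 codons. A further start, of a transcript with no coding sequence, lies just before that of pIII. Levels were taken over the CpGs within 500 bases of each start. At pI (chr16:10479559-10480559) the level was 89.6% and 83.9% in B cells and 88.2% and 87.75% in T cells, so the dendritic cell promoter was highly methylated in all 4, and the cell types overlapped (B minus T -1.21 points, adjusted p = 0.874).

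At pIII, 8220 bases downstream of pI, the level in B cells was 22.75% (95% Wilson interval, here and below for counting error only, 18 to 28.3) and 20.3% (15.7 to 25.9), and in T cells 66.0% (60.9 to 70.8) and 68.5% (63.1 to 73.4). Both B cell libraries lay far below both T cell libraries, by 43.25 points in females and 48.2 points in males (adjusted p = 1.88e-21). In a pool of sorted cells, a level between the extremes cannot tell a share of the cells from a share of the copies. At pIV, 1467 bases further, the level was 5.15% and 7.85% in B cells and 20.5% and 20.9% in T cells. The difference at this interferon-responsive promoter passed the test without reaching 20 points (B minus T -14.2 points, adjusted p = 5.56e-07). The tile that holds this start, chr16:10489001-10490000, was called (B minus T -22.0 points, adjusted p = 2.86e-16). Over CpGs with at least 10 reads in every library that tile fell short of 20 points. The order was thus pI, pIII, pIV from the most to the least methylated in both cell types. B cells were the lower over the regions of pIII and pIV. Within the region of pIV the widest gaps lay in front of the start. The CpG at -486 from it read 5.88% and 0% in B cells and 88.5% and 90.5% in T cells. The one at -16 read 0% in both B cell libraries against 10.5% and 15.4%, and the one at 52 read 0% and 8.33% against 0% and 3.85%.

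**Figure D1:**
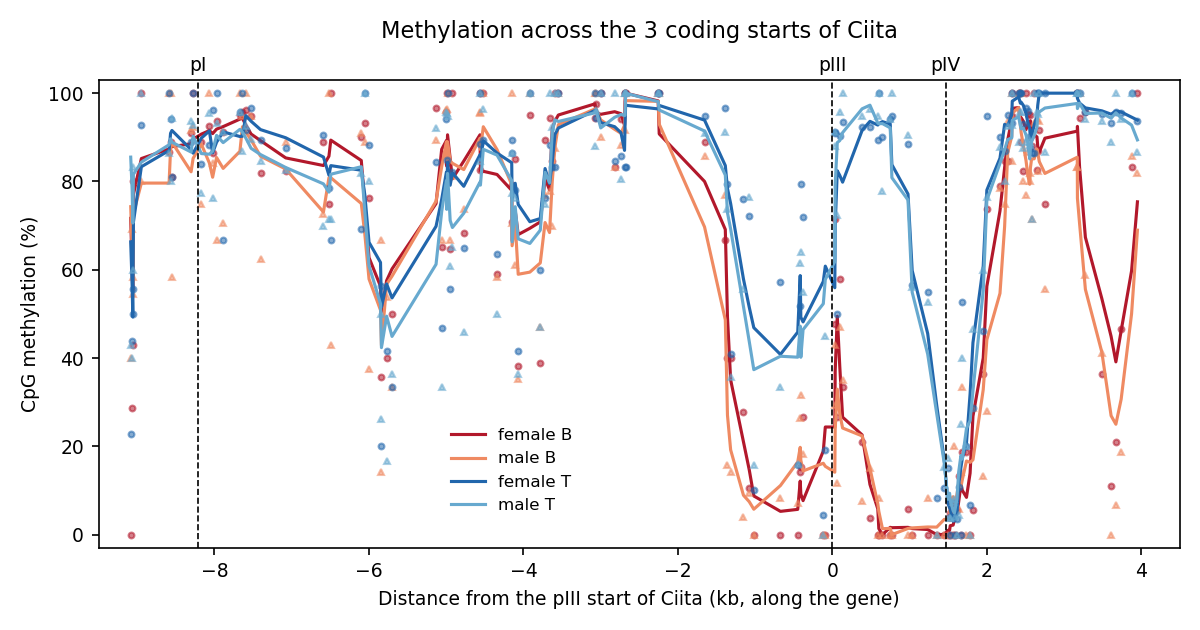
Methylation of single CpGs (points, %) and the read-weighted running level over 5 CpGs (lines) against the distance in kb from the pIII start of Ciita, for female and male B cells (red, orange) and female and male T cells (dark and light blue). Dashed lines mark the 3 coding starts. The B cell lines stay at or under about 50% from before pIII to past pIV, while the T cell lines rise above 90% just after pIII and fall to the B cell lines at pIV. At pI all 4 lines are high.

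Among tiles of 1 kb the gap was widest from pIII towards pIV. The tile chr16:10488001-10489000, which holds an exon of Ciita, read 20.9% and 16.4% in female and male B cells and 73.7% and 80.3% in T cells, the largest of any tile in the 9 windows (B minus T -58.35 points, adjusted p = 9.35e-42). A stretch of 300 bases from this tile, within the gene, is printed because each of its CpGs, in capitals, was low in B cells and high in T cells.
Ciita (chr16:10488631-10488930, plus strand): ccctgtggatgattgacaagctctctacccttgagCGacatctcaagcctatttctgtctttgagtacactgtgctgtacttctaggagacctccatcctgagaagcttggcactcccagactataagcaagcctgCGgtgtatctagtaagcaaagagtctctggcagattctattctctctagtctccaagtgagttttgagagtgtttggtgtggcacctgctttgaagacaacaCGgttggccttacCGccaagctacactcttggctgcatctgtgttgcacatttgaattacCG

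The first of these 5 CpGs read 21.1% of 19 reads in female B cells and 7.69% of 13 in male B cells, against 92.3% of 13 and 94.7% of 19 in T cells. The third read 0% of 14 and 0% of 15 reads in B cells against 89.5% of 19 and 94.7% of 19 in T cells. Over the 5 CpGs the level ran from 0% to 21.1% in the B cell libraries and from 77.8% to 100% in the T cell libraries, values that follow from how the stretch was chosen. The CpGs directly in front of pIII behaved differently. With positions counted in bases along the gene from the start, the one at -116 read 0% in both B cell libraries and 4.35% and 0% in T cells over 21 to 30 reads, and was thus at or near 0% in T cells as well. The one at -90 read 0% in both B cell libraries and 19.2% and 45% in the T cells.

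A stretch of low methylation was counted where the running level over 5 CpGs was under 50%. In B cells 1 stretch covered pIII and pIV together, 3827 bases with 47 CpGs at 17.5% in females and 4474 bases with 49 CpGs at 18.3% in males. In T cells 2 separate stretches took its place, 1 in front of pIII (1061 bases in females, 1227 in males) and 1 at pIV (1022 bases in both). The called tiles of Ciita numbered 7 of 49, all lower in B cells. Besides chr16:10488001-10489000 they included the intron tile chr16:10487001-10488000 before pIII (12.3% and 13.6% in B cells, 57.1% and 47.5% in T cells, adjusted p = 1.1e-15). Far downstream, the tile chr16:10518001-10519000, with an exon of Ciita and an untranslated exon of Dexi on the opposite strand, read 37.7% and 46.2% in B cells and 79.7% and 81.5% in T cells (adjusted p = 2.3e-20). The tile chr16:10491001-10492000, past pIV, held an untranslated exon of a Ciita transcript and read 65.8% and 51.9% against 97.2% and 95.7% (adjusted p = 6.62e-20).

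Cd74 had the largest difference at a gene start. Its promoter (1 kb on either side of the start) read 25% (19.1 to 32) and 30.9% (24.6 to 38) in B cells and 78.5% (73.2 to 83.1) and 77.0% (71.5 to 81.8) in T cells. Both T cell libraries lay above both B cell libraries, with intervals far apart (B minus T -49.8 points, adjusted p = 1.89e-28). The CpG at -76 from the start read 0% of 11 and 6.67% of 15 reads in female and male B cells and 87.5% of 16 and 85% of 20 in T cells. Its neighbor at -57 read 0% and 7.14% against 31.3% and 29.4%. The low region did not end at the start. In female B cells 1 stretch ran for 5205 bases, from -1183 to 4021 of the start, at 25.45%, and in male B cells 2 stretches of 3218 and 1416 bases covered most of it. In T cells the start lay outside any stretch, and the stretch that both T cell libraries had, 1074 bases long, began 2948 bases into the gene. The 4 called tiles of Cd74, of 17, followed each other from the start inwards, and all were lower in B cells. The B minus T difference was -49.1 points in the tile that ends just past the start (adjusted p = 1.01e-21), -50.2 in the next (adjusted p = 1.15e-08), -29.05 in the third and -27.9 in the fourth.

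The 2 genes of I-A had different patterns. The promoter of H2-Aa, the alpha chain, read 22.7% (17.3 to 29.3) and 21.6% (16.1 to 28.4) in B cells and 50.55% (45.4 to 55.7) and 53.6% (47.9 to 59.2) in T cells, a called difference (B minus T -29.9 points, adjusted p = 2.45e-11). Over CpGs with at least 10 reads in every library the difference was -19.6 points, just short of 20, and the promoter was not called (adjusted p = 0.0015). The CpGs beside the X and Y boxes were at 0% in all 4 libraries, and the difference lay on either side of them. The CpG at -268 from the start read 20% in both B cell libraries, over 5 reads each, and 72.7% and 90% in T cells, and that 716 bases after the start read 0% of 7 and 0% of 6 reads in B cells against 95.2% of 21 and 90.9% of 22. In B cells 1 stretch of 2120 (females) or 2330 (males) bases ran from -543 of the start into the gene, at 25.9% and 27.3%. In T cells of both sexes there was a stretch of 504 bases around the start, at 38.7% and 46.05%. A further 365 bases inside the gene were at 57% and 53.8% and thus not under 50% as a whole. The tile chr17:34286001-34287000, over exons of H2-Aa, had the largest difference of its 3 called tiles of 10, with 41.1% and 37.5% in B cells against 78.6% and 83.9% in T cells (adjusted p = 6.51e-12).

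H2-Ab1, the beta chain, was low at its coding start in every library. Within 500 bases of that start the level was 9.39% and 7.43% in B cells and 6.94% and 6.85% in T cells (B minus T 1.52 points, adjusted p = 0.674). The start lay in a stretch of 3011 to 3157 bases with 116 to 118 CpGs at 6.06% to 7.90% in all 4 libraries. The differences of H2-Ab1 lay away from it. A start of a transcript with a retained intron, near the end of the gene (chr17:34267770-34268770), read 67.5% and 62.9% in B cells against 94.6% and 90.7% in T cells (adjusted p = 9.82e-13), and the intron tile chr17:34261001-34262000, upstream of the coding start, read 48.4% and 46.8% against 70.9% and 73.5% (adjusted p = 7.98e-05). The outermost start GENCODE gives H2-Ab1, of a transcript with no coding sequence, had a promoter at 67.9% and 71.0% in B cells and 84.5% and 77.5% in T cells, which did not reach 20 points (B minus T -11.6 points, adjusted p = 0.00107).

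H2-Eb1, the beta chain of I-E, is intact in this strain although its partner is not made. Its promoter read 32.9% and 32% in B cells and 50% and 54.6% in T cells, just short of 20 points (B minus T -19.8 points, adjusted p = 0.00012). No CpG was measured between -768 and 180 of the start, so this promoter level came from its flanks. The 4 CpGs from -912 to -768 were low in every library, at 0% to 30%. Inside the gene the CpGs were mixed. The CpG at 180 read 100% and 81.8% in B cells and 83.3% and 79.4% in T cells, and that at 454 read 0% and 13.3% against 0% and 5.26%, so at both the cell types overlapped. The CpG 747 bases after the start, where the difference was largest among the CpGs measured near the start, read 0% of 8 and 0% of 14 reads in B cells and 82.4% of 17 and 80% of 10 in T cells. Of 13 tiles, 4 were called, all lower in B cells. The tile chr17:34307001-34308000, in an intron of H2-Eb1 and over an exon of the antisense gene Gm20513, read 62.0% and 53.0% in B cells against 99.1% and 90.6% in T cells (adjusted p = 1.43e-12). Upstream of the start, in an intron of Gm20513, the tile chr17:34301001-34302000 read 41.5% and 60.3% against 85.6% and 87.5% (adjusted p = 2.11e-17). In this upstream tile the B cell libraries were apart from each other, and both still lay below the T cells. The tile chr17:34306001-34307000, just inside the start, read 50% and 37.7% against 75.3% and 74.6% (adjusted p = 2e-08). The 4 intron tiles from chr17:34310001 to chr17:34314000 were not called, and 3 of them had the higher mean level in B cells, by 4.76, 10.07 and 5.34 points. An exon tile near the end of the gene, chr17:34314001-34315000, had the smallest called difference (B minus T -21.6 points). It fell short of 20 points and was not called without the female B library (-19.8) or the male T library (-19.9).

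**Figure D2:**
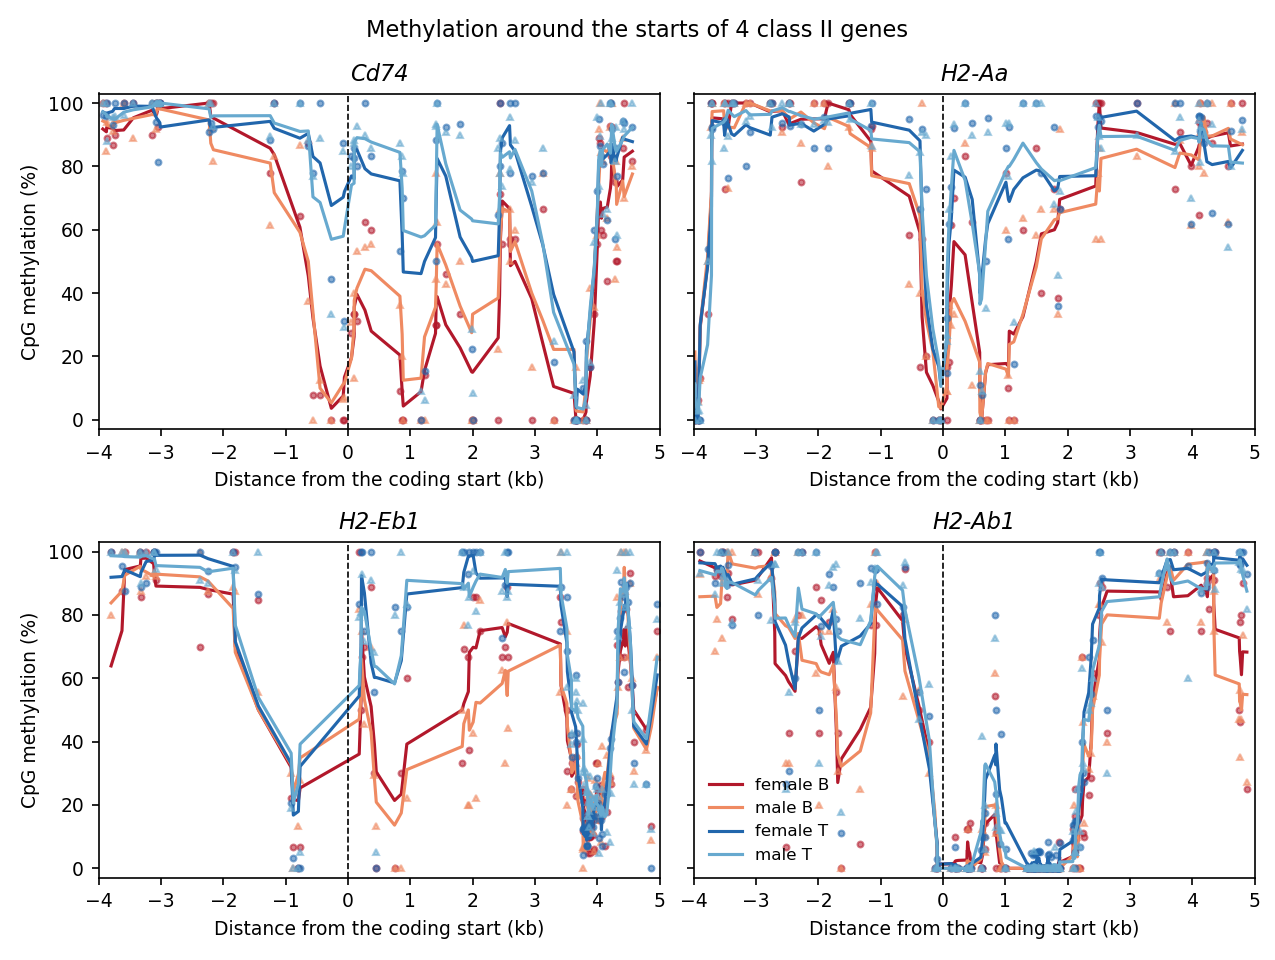
Methylation of single CpGs (points, %) and the read-weighted running level over 5 CpGs (lines) against the distance in kb from the coding start of Cd74, H2-Aa, H2-Eb1 and H2-Ab1, along each gene, in the 4 libraries. B cells (red, orange) lie below T cells (blue) over most of the first kb of Cd74, H2-Aa and H2-Eb1, while all 4 lines of H2-Ab1 stay under 50% for 2 kb from its coding start.

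The windows of the peptide editors H2-DM ran partly the other way. They held the 5 tiles called lower in T cells, which were 2.82% of the 177 tested, near the 2.36% of all tiles. H2-DMa has coding starts at chr17:34122822 and chr17:34135628, and both were low in all 4 libraries, at 0.117% to 1.69% and at 0.904% to 1.74%. The outermost start of H2-DMa shares its CpG-rich promoter with Brd2 and read 0.0658% to 0.734%, where the adjusted p of 0.00037 goes with a B minus T difference of 0.555 points. Mitochondrial CpGs were higher in the same libraries, and their part in differences this small was not tested. Between the coding starts lies intron sequence in which T cells were the lower. The tile chr17:34128001-34129000, which also holds an exon of the antisense transcript CR974462.4, read 62.8% and 52.8% in B cells and 5.81% and 8.24% in T cells (B minus T 50.8 points, adjusted p = 1.84e-40). A stretch of 3392 bases with 57 CpGs spanned this place in both T cell libraries, at 10.5% and 10.1%, and in B cells it was broken into 2 parts at 21.02% to 43.3%. Part of that tile is printed, CpGs in capitals, because it had the largest difference of any tile lower in T cells in the 9 windows.
H2-DMa (chr17:34128690-34128989, plus strand): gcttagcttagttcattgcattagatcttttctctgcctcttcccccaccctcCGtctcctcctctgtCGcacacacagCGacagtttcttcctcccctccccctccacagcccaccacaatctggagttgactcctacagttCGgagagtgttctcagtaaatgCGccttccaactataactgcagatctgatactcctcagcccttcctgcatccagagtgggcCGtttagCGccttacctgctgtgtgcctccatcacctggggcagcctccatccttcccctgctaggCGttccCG

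Over these 9 CpGs female T cells read 0% at 8 and 22.2% at 1, and male T cells 0% to 23.5%. The B cells ran from 50% to 87.0% in females and from 11.1% to 83.3% in males. The T cells were thus low throughout this stretch and the B cells mixed. In the printed Ciita stretch the T cells were high at each CpG. Each stretch was the part of its tile with the most CpGs at least 50 points apart, in tiles picked for opposite directions. The low T cell levels here and the contrast with Ciita follow in part from that choice. H2-DMa had 2 further tiles lower in T cells, chr17:34130001-34131000 in the same intron (81.1% and 80% in B cells, 47.5% and 50.8% in T cells, adjusted p = 2.49e-14) and chr17:34116001-34117000 in an exon of Brd2 (32.6% and 36.5% against 11.5% and 9.17%, adjusted p = 3.5e-05). Over CpGs with at least 10 reads, the former fell just under 20 points (B minus T 19.9). A tile downstream of the gene, chr17:34142001-34143000, was called lower in B cells at 56.5% and 49.2% against 68.6% and 78.4% (adjusted p = 2.05e-05), with a female B minus T difference of -12.1 points. This tile lies partly in the promoter region of H2-DMb2 given below, so those results share CpGs. Without the male B or the male T library its difference was -17.0 or -15.8 points, and it was not called.

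H2-DMb1, the beta chain of H2-DM, held both directions in 1 window. At its GENCODE start, which lies before the boxes printed above, the level was lower in B cells, 36.6% and 48.0% against 57.05% and 63.6% (B minus T -18.02 points, adjusted p = 0.00942), short of 20 points, and the CpG 168 bases after the start read 14.3% and 40% in B cells against 78.9% and 83.9% in T cells. Upstream, the CpG at -971 from the start went the other way, with 91.7% of 12 and 100% of 5 reads against 33.3% and 35.7%. The whole promoter averaged over both and was not called (63.1% and 69.3% in B cells, 70.4% and 73.2% in T cells, adjusted p = 0.279). Over CpGs with at least 10 reads in every library it was called lower in B cells (B minus T -20.99 points, adjusted p = 3.19e-05), as was the start (-27.6 points, adjusted p = 0.000328). Downstream of the gene, 2 intergenic tiles were called lower in T cells. The tile chr17:34162001-34163000 read 79.9% and 73.7% in B cells against 34.4% and 38.5% in T cells (adjusted p = 6.72e-16), and chr17:34164001-34165000 read 67.3% and 74.3% against 26.6% and 29.8% (adjusted p = 2.39e-15). Neither had enough CpGs with at least 10 reads in every library to be tested at that minimum.

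**Figure D3:**
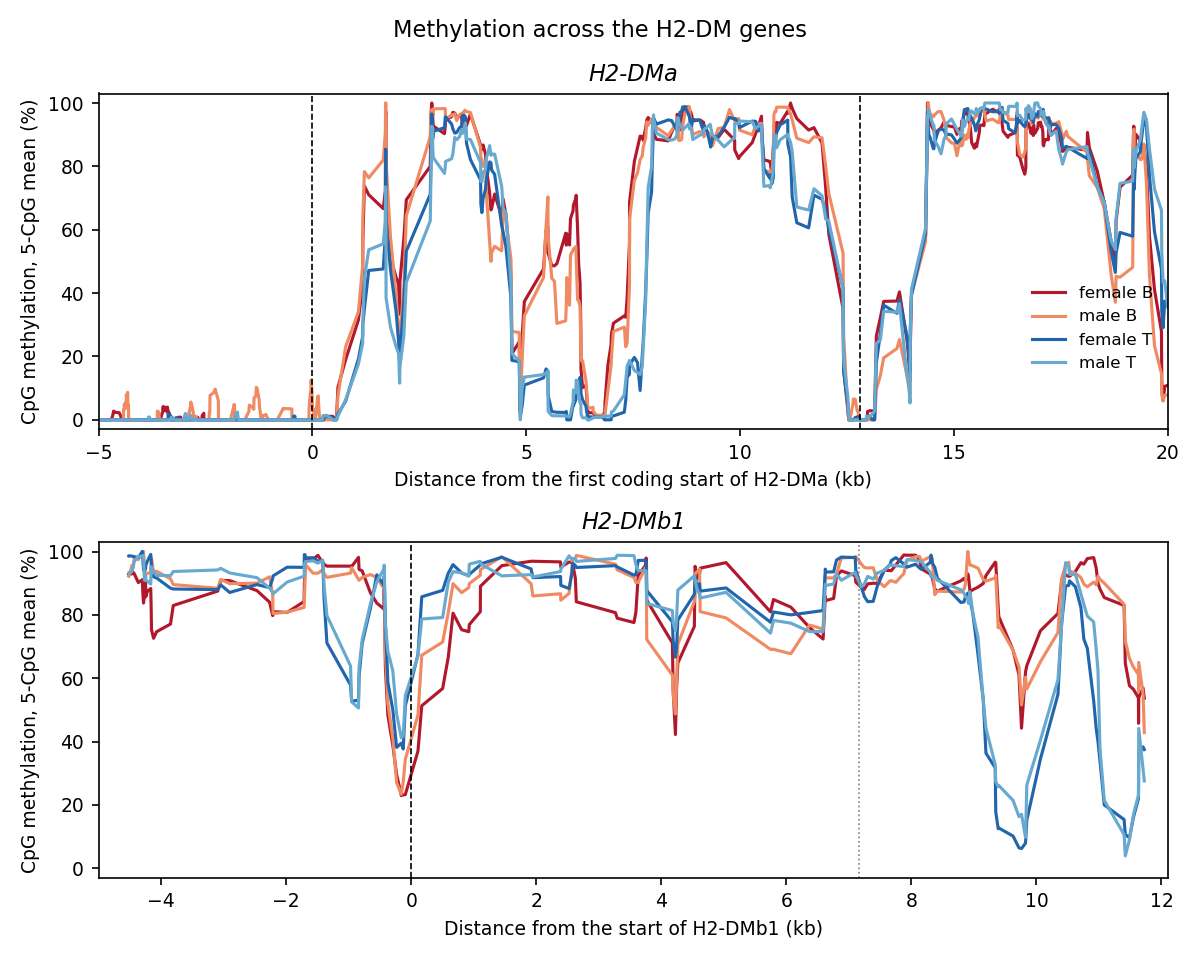
Read-weighted running methylation level over 5 CpGs (%) against the distance in kb from the first coding start of H2-DMa (top) and the start of H2-DMb1 (bottom) in the 4 libraries. Dashed lines mark coding starts and the dotted line the end of H2-DMb1. T cells (blue) lie below B cells (red, orange) at about 5 kb past the first coding start of H2-DMa and in 2 dips past the end of H2-DMb1, and all 4 lines are close to 0% at both coding starts of H2-DMa.

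The genes of H2-O, the restraint on H2-DM, showed no called difference. Within 500 bases of its start H2-Oa read 11.1% and 11.5% in B cells and 10.5% and 8.49% in T cells (B minus T 1.81 points, adjusted p = 0.691). H2-Ob read 11.9% and 8.45% in B cells and 15.4% and 14.9% in T cells (B minus T -4.99 points, adjusted p = 0.522) over 6 CpGs. None of the 13 tiles of H2-Oa and 20 of H2-Ob was called, with differences between -15.1 and 12.4 points. Some passed the adjusted p without reaching 20 points, in both directions. Among them were chr17:34236001-34237000 of H2-Ob (B minus T -13.6 points, adjusted p = 5.53e-07) and 2 tiles of H2-Oa. These were chr17:34097001-34098000 (-15.1, adjusted p = 0.00163) and chr17:34096001-34097000 (12.4, adjusted p = 0.000501). The starts of H2-Oa and H2-Ob, like the coding starts of H2-DMa and H2-Ab1, were low in T cells too. The window of H2-Ob overlaps that of H2-Ab1 by 6726 bases, so their values there are shared.

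**Figure D4:**
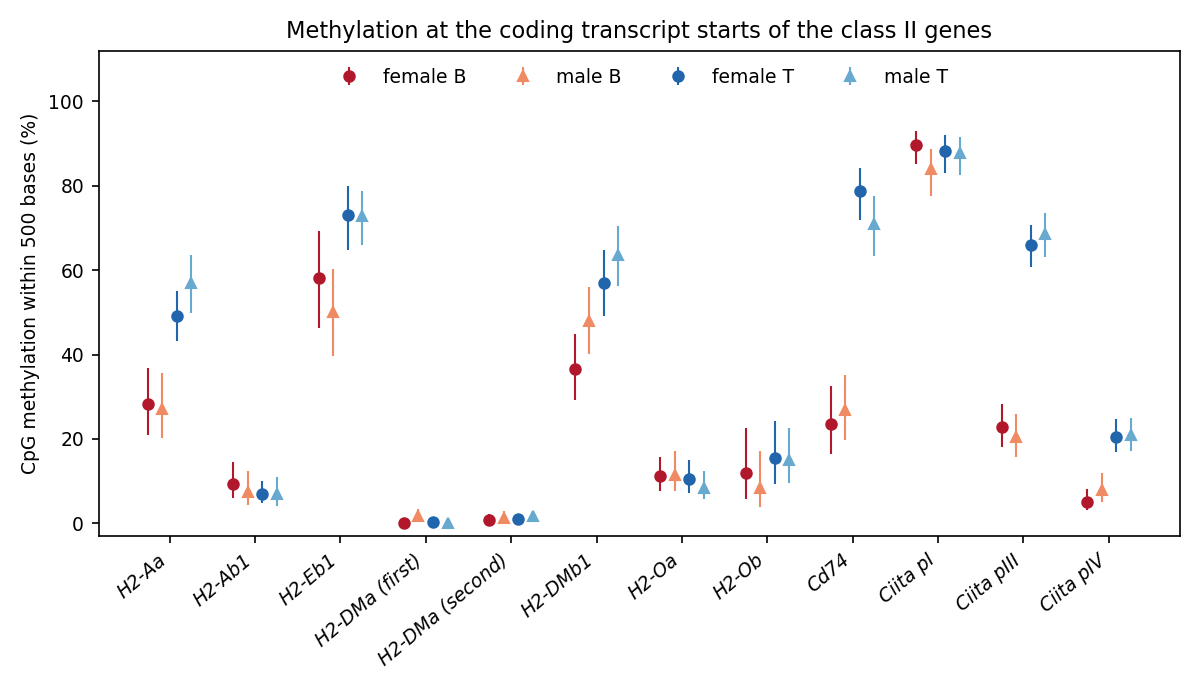
Methylation level (%) over the CpGs within 500 bases of each of the 12 coding starts of the 9 genes, with 95% Wilson intervals as bars, in female and male B cells (red circles, orange triangles) and female and male T cells (blue circles, light blue triangles). B cells lie clearly below T cells at H2-Aa, Cd74 and pIII of Ciita, while H2-Ab1, both starts of H2-DMa, H2-Oa and H2-Ob are low in every library and pI of Ciita is high in every library.

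Over the 9 genes, 24 transcript starts had enough CpGs to be tested, 12 of them coding. The 5 called, all lower in B cells, were the starts of Cd74 and H2-Aa, both at pIII of Ciita and the retained-intron start of H2-Ab1. That of H2-Aa was not called over CpGs with at least 10 reads in every library (B minus T -19.6 points, adjusted p = 0.00215) or with no term for sex (-25.25 points, adjusted p = 0.0526). The 5 were 20.8% of the starts, against 0.901% of 56696 starts of all genes. Starts at pIII share most of their CpGs and are not separate evidence. By gene promoters, 2 of 9 were called lower in B cells, where 0.41% of all were. At any size of difference 4 of 9 passed the adjusted p lower in B cells, where 2.2% of all promoters did, and 1 (H2-DMa) lower in T cells, where 17.7% did. Another 4 starts were under 5% in all 4 libraries. With any 1 library left out, the fit has no term for sex, and on all chromosomes none of the 5 starts was then called. Of the promoters, none was called without the female T or the male T library, 1 (Cd74) without the male B library and 2 without the female B library. The same fits on autosomes alone, chosen after seeing the data, called most of these starts and promoters. Each fit with a library left out leaves a cell type with 1 library. The share of all starts or promoters called in these fits was not taken. Their calls thus describe only how the results depend on single libraries. Without the male T library the B minus T difference of the H2-Aa start was -21.35 points.

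By 1-kb tile, 20 of 177 (11.3%) were called lower in B cells, against 0.812% of 1530528 tiles genome-wide, and 5 (2.82%) lower in T cells, against 2.36%. The first share was far above that of the genome and the second was near it. Over CpGs with at least 10 reads in every library, 13 of 128 tiles were called lower in B cells and 1 lower in T cells, against 0.996% and 2.45% of all 1015072 such tiles. With tiles of 500 bases, 38 of 318 were called lower in B cells and 12 lower in T cells, against 0.95% and 2.51% of all. With tiles of 5 kb, 4 of 43 were called lower in B cells and none lower in T cells, against 0.183% and 1.07%. Of the 25 tiles called without that minimum, 11 were called, 3 fell short of 20 points (chr16:10489001-10490000 at -18.6, chr17:34287001-34288000 at -19.6 and chr17:34130001-34131000 at 19.9), and the rest had too few such CpGs to be tested, among them both tiles of H2-DMb1 and that of H2-DMa in Brd2. The 20 lower in B cells belonged to Ciita (7), H2-Eb1 (4), Cd74 (4), H2-Aa (3), H2-Ab1 (1) and H2-DMa (1), and the 5 lower in T cells to H2-DMa (3) and H2-DMb1 (2). All 25 had the same sign in both sexes, and 23 reached 20 points in each sex taken alone. The same 4 libraries made the calls, so this agreement follows in part from the choice of tiles and is not separate evidence. Among single CpGs listed in all 4 libraries, 75 of 2612 (2.87%) were at least 50 points lower in B cells with no overlap of the cell types, against 0.343% of 18684786, and 33 of them were in Ciita. In the opposite direction there were 36 (1.38%), against 0.855%, with 19 in H2-DMa and 15 in H2-DMb1.

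**Figure D5:**
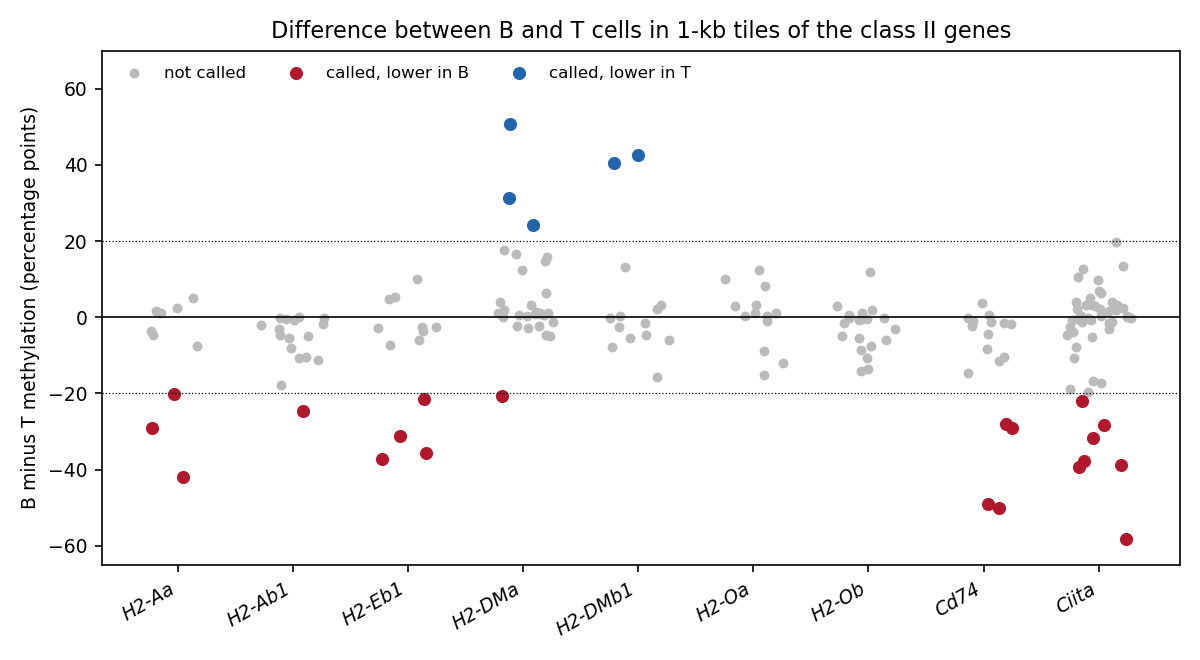
Difference in methylation between B and T cells (percentage points, mean of the 2 B cell libraries minus mean of the 2 T cell libraries) for each 1-kb tile of the 9 gene windows, spread sideways for legibility. Dotted lines mark 20 points either way, and grey points were not called. The 20 tiles called lower in B cells (red) reach -58.35 points in Ciita, and the 5 called lower in T cells (blue) are all in H2-DMa and H2-DMb1.

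Whole windows moved little. None of the 9 reached 20 points, where 0.0186% of 21553 gene windows did lower in B cells. The edgeR adjusted p was under 0.05 at any size for 5 lower in B cells, against 1.85% of all windows, namely H2-Eb1 (B minus T -10.4 points), H2-Aa (-8.47), Cd74 (-8.20), Ciita (-5.91) and H2-Ob (-4.36). H2-DMa was higher in B cells (4.51 points, adjusted p = 0.00933), the direction in which 32.8% of all windows passed. The median window of all genes was 1.76 points higher in B cells.

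No difference between the sexes passed the test in these genes. No tile of the 177 was called between females and males, where 0.0868% of all tiles were, and none for an unequal B minus T difference in females and males, where 0.000784% were. For females against males, edgeR gave 17 tiles at an unadjusted p under 0.05 and limma 7, and the lowest adjusted p of edgeR was 0.125. The share of all tiles at that unadjusted p was not taken, so these counts cannot be set against the genome. The sex contrast had 2 libraries on each side. The test for an unequal difference had 1 library in each group. It took its spread from the average difference between the sexes, for which that fit had no term, and from the other regions, so it says little about these genes. A missed threshold does not show that the sexes were alike.

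The rest of the class II pathway had median promoter levels of 10.5% to 11.65% in the 4 libraries. Of 17 genes listed, 16 could be tested, and 1 was called lower in B cells, where 0.41% of all promoters were. It was H2-Eb2, a further class II beta chain gene (36.1% and 34.7% in B cells, 68.8% and 76.1% in T cells, adjusted p = 1.26e-17). Without a minimum difference 3 passed lower in B cells and 4 lower in T cells, against the same 2.2% and 17.7% of all promoters. Of these and of the class I genes below, the ones given were chosen after their values were seen. H2-DMb2, the second H2-DM beta gene (16.85% and 10.6% against 23.95% and 24.35%, adjusted p = 0.0024), was lower in B cells, as was Cd40, the receptor through which helper T cells activate B cells (7.31% and 8.75% against 11.8% and 12.7%, adjusted p = 0.0484). Cd86, a costimulatory ligand of activated B cells, went the other way at 15.05% and 13.9% in B cells against 4.31% and 5.78% in T cells (adjusted p = 3.22e-07). The promoters of Rfx5, Rfxap, Rfxank, Nfya and Nfyb, whose products bind the X and Y boxes, lay between 0.0631% and 6.28% in all 4 libraries. Beside Cd86, those that passed lower in T cells were Rfxank (B minus T 2.55 points, adjusted p = 0.0231), Nfyb (1.22, adjusted p = 0.0306) and Creb1 (1.14, adjusted p = 5.05e-07). Mitochondrial CpGs were higher in B cells too, and their part in differences this small was not tested. The promoter of Nfyc, which encodes the remaining subunit of the Y box factor, was high, at 90.7% and 88.7% in B cells and 87.4% and 89.97% in T cells. It was taken around the outermost start of the gene alone and held 18 CpGs, where those of Nfyb and Nfya held 144 and 147. Levels at any other start of Nfyc are not given here. The median B minus T difference of the list was 1.08 points, beside 0.97 over all promoters.

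The class I pathway, which every nucleated cell uses, served as the counterpart. None of its 11 promoters was called, and 4 passed without a minimum difference, all lower in T cells, the direction in which 17.7% of all promoters passed. Of these, the promoters of Psmb9 and Tap1 share most of their bases and are not separate evidence. Psmb8, an immunoproteasome subunit encoded in the same complex, read 6.23% and 7.71% in B cells against 0.201% and 0.230% in T cells (adjusted p = 6.78e-26). Of its 11 gene windows 10 passed lower in T cells, against 32.8% of all windows, but those of Psmb9, Tap1, Psmb8 and Tap2 overlap in a chain and share CpGs. The list had a median B minus T difference of 7.41 points beside 1.76 over all windows. The 9 class II windows had a median of -4.36 points, and the 16 windows tested in the rest of the class II pathway had 1.67. Of those 16, 2 passed lower in B cells and 5 lower in T cells at any size, against 1.85% and 32.8% of all windows.

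Promoter levels over the 4 libraries were closest to those of Cd74 in 3 other genes, by the largest difference in any library. These were Mzb1, a chaperone of antibody-making cells, within 6.52 points, Spib, a B cell transcription factor, within 10.9 points, and H2-Eb2 within 11.1 points. Mzb1 read 24.7% and 28.3% in B cells and 72.0% and 78.5% in T cells, and Spib 21.9% and 29.5% against 70.9% and 66.2%. With 4 libraries, this likeness is a description of these levels.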

How the data were processed

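Whole-genome oxidative bisulfite sequencing was deposited as 1 table of CpGs for each of 4 groups (B or T cells, female or male), each with 2 samples. A table is listed in the labels of both its samples, and the number ending its name matches that of 1 of them, so it may hold that sample alone. No source used here states it. The submitters' processing notes name Trim Galore, FastQC, Bismark 0.13.1 and mm10. The deposited methylation level is a fraction of reads that kept a C, and the deposited count is the reads at the CpG, none under 5. No column of sample values was left unused. Oxidation makes 5-hydroxymethylcytosine read as T, so the level stands for 5-methylcytosine.

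Methylated read counts were recovered from level and count, and summed over CpGs listed in all 4 tables. Promoters (1000 bases on either side of the outermost start), transcript starts (500 bases, starts within 100 bases joined), 1000-base tiles and gene windows (5000 bases on either side) needed at least 5 CpGs and 20 reads in every library. Methylated and unmethylated counts were fitted with edgeR 4.0.16 (quasi-likelihood, terms for cell type and sex, or for cell type and its interaction with sex) over all regions of a kind, with Benjamini-Hochberg adjustment, after a check on simulated data. For promoters, starts and tiles the spread was shared fully across regions, so their p-values rest on the common spread. limma 3.58.1 on logit levels was an alternative, as were other widths, read minimums, minimum differences, no sex term and leaving out each library. R 4.3.3, Python 3.11.15 and GENCODE M21 were used. Intervals are 95% Wilson.

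The genes, lists and tests were chosen with earlier results of these data known. Tiles were to be named where called, at most the 4 largest for each gene. Some are named outside that rule, namely tiles not called in H2-Eb1, H2-Oa and H2-Ob and the called Ciita tile chr16:10489001-10490000. Of the pathway lists, those called were to be named, and of promoters like that of Cd74, the 3 closest.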

Additional observations from a re-analysis of the deposited data

How the results depend on the processing

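No paired analysis was possible because the replicate numbers of the 8 samples are all distinct and each group has 1 table. No called result changed sign under the alternatives run, which for tiles covered the 25 called. Some differences that were not called did, such as the Ciita promoter (2.13 points without the male B library), the H2-Ob promoter (1.92 without the female T library) and the H2-Ab1 window (1.76 without the female B library). The H2-DMb1 window went from 2.37 to -3.91 points with at least 10 reads at every CpG (adjusted p = 0.0249), and the cause was not tested. Without a minimum difference, 5 promoters, 11 starts, 57 tiles and 6 gene windows passed, in place of 2, 5, 25 and 0, and with a minimum of 10 points 4, 10, 44 and 1 passed. At any size, 2.2% of all promoters and 1.85% of all windows passed lower in B cells, and 17.7% and 32.8% lower in T cells. Such shares were not taken for starts and tiles or at 10 points. Those counts describe only how the calls depend on the minimum. With at least 10 reads at every CpG 14 tiles were called, of 128 tested. With 500-base tiles 50 of 318 were called (38 lower in B cells, 12 lower in T cells), and with 5-kb tiles 4 of 43, all lower in B cells. limma gave 2 promoters, 5 starts and 25 tiles, and the fit with no term for sex 2, 4 and 25. With each library left out in turn, 0 to 2 promoters, 0 starts and 24 to 27 tiles were called. On autosomes alone, an alternative chosen after seeing the data, the same fits called 2 to 3 promoters and 4 to 6 starts. The common dispersion was 0.0369 to 0.0439 for promoters with the X chromosome and 0.00895 to 0.0189 without it, and 0.0511 to 0.0767 and 0.00963 to 0.039 for starts. The tiles chr17:34142001-34143000, chr17:34288001-34289000 and chr17:34314001-34315000 were called in 2 of 4 such fits, and the other 22 in all 4. Levels at single CpGs rest on few reads, a median of 13 to 18 per CpG in the gene windows, and every comparison of cell types on 2 libraries a side.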
